A study of Mus musculus with 12 samples.

Results

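Mouse splenic dendritic cells (DCs) were compared after 3 h of culture with effector memory T cells of a syngeneic source (the SynTem group, 3 libraries) and after 3 h of culture alone (the DC only group, 3 libraries). The members are these 6 RNA sequencing libraries of the 12 in the series, chosen by their labelled treatment, and every gene measured in them was used. All DCs were from C57BL/6 (B6) mice that carried B16 melanoma cells secreting Flt3 ligand, which drives DC numbers up, so both groups share the tumor and the cytokine. Beads had removed T cells, B cells, NK cells and macrophages from the spleen cells, and after culture the DCs were sorted by CD11b and CD11c. The T cells of the SynTem group were B6 memory T cells, of the same strain as the DCs. The 6 other libraries were DCs cultured with lipopolysaccharide (LPS) or with BALB/c-derived memory T cells that recognise alloantigen (AlloTem), 3 each, and they serve here for the spread between libraries and for direct comparison. Whether the 3 libraries of a group came from separate animals or cultures is not labelled, and the p-values therefore reflect a spread between libraries that may be technical.

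A DC takes up antigen, shows its peptides on MHC molecules to the T cell receptor, and supplies costimulatory ligands such as CD80 and CD86. A T cell talks back through CD40 ligand and through cytokines. Interferon gamma, which effector memory T cells can release quickly, induces IRF1, chemokines that draw T cells, and the guanylate-binding and immunity-related GTPases that attack intracellular pathogens. Cytokines that use the common gamma chain act through STAT5 and induce feedback genes such as Cish.

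Each DC only library held between 16323673 and 19461531 counts and each SynTem library between 13903574 and 15982118. The counts were enough to test 14413 of the 57009 genes listed. Levels are given as CPM, the counts per 1000000 counts of a library, scaled to a TMM-adjusted library total, and they compare libraries for 1 gene, not genes with each other. Markers of the labelled cell type were present: Itgax (CD11c) was 374 to 424 CPM in DC only against 261 to 470 CPM in SynTem, Itgam (CD11b) 188 to 199 and 148 to 351 CPM, and the MHC class II gene H2-Ab1 2281 to 2988 and 1988 to 2909 CPM. Transcripts of the sex chromosomes did not follow the groups. Summed Y-linked transcripts were 0, 0 and 208.6 CPM in DC only 1 to 3 and 10.3, 175.1 and 130.9 CPM in SynTem 1 to 3, and Xist was 828, 886 and 146 CPM against 798, 312 and 455 CPM. DC only 3, SynTem 2 and SynTem 3 thus held both kinds of transcript, and SynTem 1 held Y-linked ones at a low level. DC only 3 stood apart from DC only 1 and 2 but was near LPS 3 and AlloTem 3. Those had 219.6 and 203.8 CPM of Y-linked transcripts and 138 and 145 CPM of Xist. The most alike libraries of any group, DC only 1 and 2, had a chi-square of 6.139 per degree of freedom, where sampling noise alone gives about 1, and the 11 other pairs had 26.45 to 80.69. Both were kept as separate libraries. A deposited batch number from 1 to 3, whose meaning is not stated, equals the replicate number, and values within a batch are given below where they bear on a result.

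**Figure D1:**
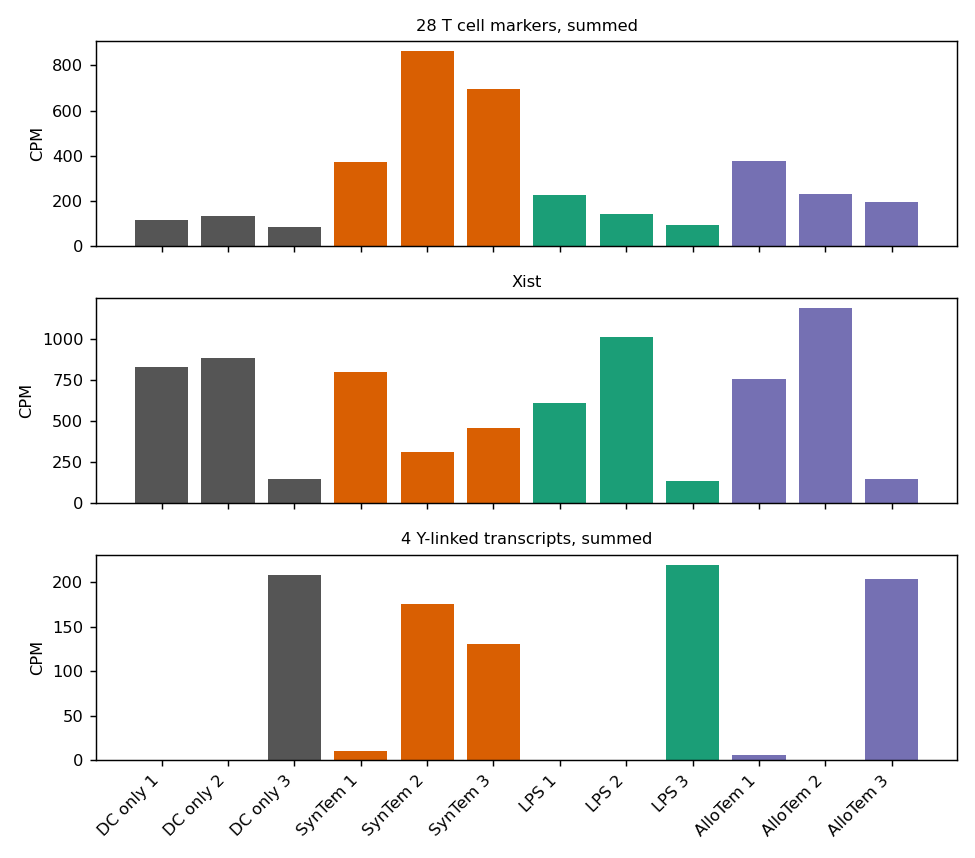
Summed level of the 28 tested T cell markers (top), Xist (middle) and 4 summed Y-linked transcripts (bottom) in CPM, 1 bar per library for all 12 libraries, coloured by group. T cell markers were 374.4, 863.0 and 696.3 CPM in SynTem and 86.6 to 135.1 CPM in DC only, while the sex-linked transcripts varied within both groups.

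Few genes could be shown to differ between the groups beyond the spread of the libraries, and most of those are T cell genes. By edgeR's quasi-likelihood test with Benjamini-Hochberg adjustment, 13 of 14413 genes passed an adjusted p of 0.05 (0.0902%), 11 higher in SynTem (0.0763%) and 2 lower (0.0139%). The 11 were Izumo1r, Cd4, Cd3d, Cd3e, Cd3g, Trac, Lat, Bcl11b, Cd27, Zfp281 and Nfil3, and the 2 were Rnase6 and Gm15922. In 13 of 13 the libraries of the groups did not overlap, which by itself gives the same direction within batches 1, 2 and 3. Both describe the values that gave the calls and are no separate test. Without adjustment 1187 genes (8.24%) had p under 0.05, 696 higher (4.83%) and 491 lower (3.41%). Groups did not overlap, with SynTem higher, in 1069 genes (7.42%) and, with SynTem lower, in 985 (6.83%). The calls depended on single libraries: none was left without SynTem 2, without SynTem 3 or without DC only 1, where 1174, 993 and 799 genes had an unadjusted p under 0.05, and none of the 13 was called without DC only 2. DESeq2 called 254 genes (1.76%), 213 higher (1.48%) and 41 lower (0.284%), with the 13 among them, and limma voom called 2 (0.0139%), both higher, of which Cd4 is 1 of the 13. With the batch number as a block, edgeR called 21 genes (0.146%), 19 higher (0.132%) and 2 lower, and 11 of the 13 stayed called. These fits take the spread from all 12 libraries. With the 6 libraries alone edgeR called 1 gene, and 0 when the block was added.

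**Figure D2:**
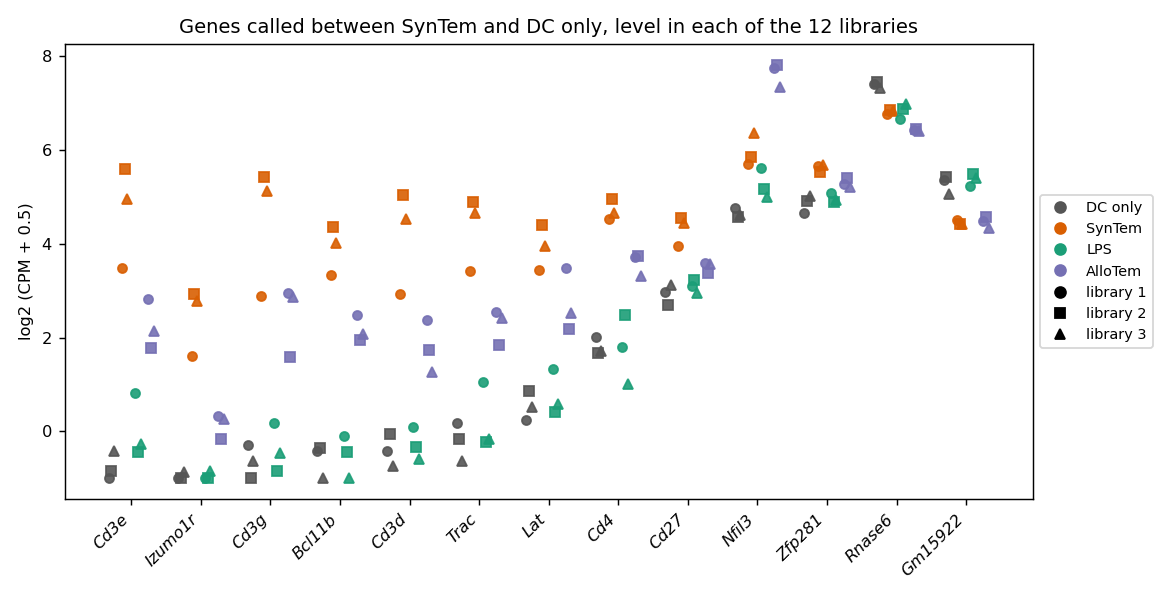
Level of the 13 called genes as log2 (CPM + 0.5) in each of the 12 libraries, with colour for the group and marker shape for the library number. SynTem libraries lie above DC only libraries for 11 genes and below them for Rnase6 and Gm15922, and SynTem 1 is the lowest of the SynTem libraries for the genes of the T cell receptor complex.

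The T cell receptor and its CD3 chains were close to absent in DCs cultured alone and present in every SynTem library. Cd3e, which encodes the CD3 epsilon chain, was 0, 0.0571 and 0.245 CPM in DC only 1 to 3 and 10.7, 47.9 and 30.4 CPM in SynTem 1 to 3. It rose 255-fold (log2 change 8.0 ± 0.96 SE, edgeR adjusted p = 0.0161). Cd3d, for the delta chain, was 0.25, 0.457 and 0.098 CPM against 7.06, 32.2 and 22.6 CPM (log2 6.25 ± 0.74, edgeR adjusted p = 0.0161). SynTem 1 had the lowest level of the SynTem libraries for both chains, and SynTem 2 the highest. Cd3g, for the gamma chain, was 0.313, 0 and 0.147 CPM against 6.91, 42.0 and 34.5 CPM (log2 7.47 ± 1.03, edgeR adjusted p = 0.0328). Its call was lost with the batch number as a block (edgeR adjusted p = 0.0727, with a range over the alternatives of 2.97e-14 to 0.469). The 3 CD3 genes are neighbours on chromosome 9 (mm10, chr9:44969572-44980431 for Cd3g, chr9:44981786-44987339 for Cd3d and chr9:44998740-45009627 for Cd3e). Trac, the constant segment of the receptor's alpha chain (chr14:54220521-54224206), was 0.626, 0.4 and 0.147 CPM against 10.3, 29.3 and 24.7 CPM, a 55.3-fold rise (edgeR adjusted p = 0.0161). The constant segments of the beta chain were 0.751, 1.37 and 0.441 CPM against 14.4, 43.6 and 35.9 CPM for Trbc2, and 3.19, 3.43 and 0.539 CPM against 15.8, 23 and 20.9 CPM for Trbc1. Neither gene passed (edgeR adjusted p = 0.0619 and 0.38), and the pair is nearly identical in sequence, so how reads were split between them is uncertain. Cd247, the zeta chain, was 5.05 to 8.91 CPM in DC only against 15.4 to 17.7 CPM in SynTem (edgeR adjusted p = 0.366).

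Among coreceptors, the CD4 gene rose and the CD8 alpha gene was level. Cd4 (chr6:124864692-124888221) was 3.51, 2.68 and 2.79 CPM in DC only and 22.5, 30.3 and 24.6 CPM in SynTem, an 8.61-fold rise (log2 3.11 ± 0.36 SE, edgeR adjusted p = 0.0161). The SynTem libraries lay close together for Cd4, which some splenic DCs also express and which is in the list of conventional type 2 DC markers too. Cd8a was 2.88, 4.28 and 3.97 CPM against 2.23, 3.86 and 4.39 CPM (log2 -0.08 ± 0.47, edgeR adjusted p = 0.982), with overlapping groups. It is also expressed by DCs of the type 1 lineage. Cd8b1, the beta chain that T cells add to CD8, was 0 to 0.228 CPM in DC only against 0.669 to 1.96 CPM in SynTem (edgeR adjusted p = 0.213).

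Genes that carry the receptor's signal were higher in every SynTem library. Lat, the membrane adaptor on which the signal is assembled, was 0.689, 1.31 and 0.931 CPM against 10.4, 20.7 and 15.1 CPM and rose 15.6-fold (log2 3.97 ± 0.49, edgeR adjusted p = 0.0161). Its kinases were higher without passing the test. Lck was 4.11 to 13.4 CPM in DC only against 33.4 to 53.6 CPM in SynTem, and Zap70 0.931 to 4.91 and 11.7 to 35.7 CPM (edgeR adjusted p = 0.366 and 0.388). For both kinases DC only 3 was the lowest library. Themis, an adaptor of developing and mature T cells, had 0 counts in the 3 DC only libraries and 24, 187 and 144 counts in SynTem, at least 133-fold higher against a floor of 3 counts over the DC only group (edgeR adjusted p = 0.0546).

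Transcription factors and surface receptors of T cells followed the same order of libraries. Bcl11b, a factor that fixes T cell identity, was 0.25, 0.286 and 0 CPM against 9.59, 20.01 and 15.5 CPM and rose 84.6-fold (log2 6.40 ± 0.84 SE, edgeR adjusted p = 0.0212). Tcf7 and Lef1, factors of naive and memory T cells, were 25.7 to 29.6 against 48.5 to 71.2 CPM and 0.147 to 3.2 against 10.3 to 13.6 CPM, without passing (edgeR adjusted p = 0.39 and 0.539). Cd27, a costimulatory receptor of the TNF receptor family, was 7.39, 6.00 and 8.18 CPM against 14.9, 22.8 and 21.2 CPM and rose 2.73-fold (edgeR adjusted p = 0.0212). Izumo1r, which encodes folate receptor 4, known for its high level on regulatory T cells, had 0, 0 and 1 counts in DC only and 34, 113 and 107 counts in SynTem. The ratio of the pooled CPM was 297 (95% counting interval 52.8 to 11774), and the gene passed (edgeR adjusted p = 0.0161). The inhibitory receptor Ctla4 was 0.0571 to 0.588 CPM against 5.95 to 13.4 CPM, and the interleukin 2 receptor alpha chain Il2ra 5.13 to 6.47 CPM against 20.8 to 66.9 CPM (edgeR adjusted p = 0.0552 and 0.0896). Il2ra is also made by activated DCs. Nrn1 and Ccr4, T cell genes named after their values were seen, had 1 count each over the DC only group and 253 and 198 counts over SynTem (edgeR adjusted p = 0.0546 and 0.074). Nrn1 passed with the batch number as a block (edgeR adjusted p = 0.0442, with a range over the alternatives of 1.26e-05 to 0.604).

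The genes of next smallest p included further T cell genes, and none of them passed. Cd5 and Cd6, related scavenger receptors that tune the T cell receptor's signal and are neighbours on chromosome 19 (chr19:10717116-10739002 and chr19:10789341-10830058), were 5.57, 8.22 and 10.6 CPM against 18.3, 32.4 and 25.5 CPM, and 1.63, 4.34 and 6.07 CPM against 14.0, 30.7 and 24.7 CPM (edgeR adjusted p = 0.0546 and 0.074). Ubash3a, a phosphatase that damps T cell signalling, was 0, 0.228 and 0.735 CPM against 3.87, 15.1 and 14.9 CPM (edgeR adjusted p = 0.0988). Pde4d, which breaks down cyclic AMP, was 3.44, 5.03 and 2.40 CPM against 12.6, 20.6 and 18.3 CPM, and the lipid phosphatase gene Inpp4b 9.51, 11.1 and 7.30 CPM against 20.7, 41.5 and 31.6 CPM (edgeR adjusted p = 0.0552 and 0.074). In each of these 5 genes the groups did not overlap and SynTem 2 was the highest library. With the batch number as a block, Cd5, Cd6, Pde4d and Inpp4b passed (edgeR adjusted p = 0.019, 0.019, 0.0318 and 0.043, with ranges over the alternatives that reach from 2.45e-05 or less to 0.4 or more). Icos, Cd28 and Thy1 were named apart from this ranking. The costimulatory receptor Icos was 0.814 to 1.03 CPM against 3.27 to 8.42 CPM, and Cd28 3.82 to 5.60 CPM against 9.29 to 38.5 CPM (edgeR adjusted p = 0.0781 and 0.161). Thy1, a surface protein of all mouse T cells, was 2.40 to 4.68 CPM against 4.83, 68.8 and 53.5 CPM, so that SynTem 1 lay near DC only (edgeR adjusted p = 0.164). Csf1 and Smim5 were in the ranking too, as were Cish and Jak3, which are described below. Csf1, the macrophage growth factor, was 5.45, 4.23 and 2.60 CPM against 9.44, 15.2 and 24.1 CPM, and Smim5, a small membrane protein, was lower at 22.2, 19.5 and 14.8 CPM against 7.66, 9.69 and 9.49 CPM (edgeR adjusted p = 0.0786 and 0.0599).

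Over the whole list of 28 T cell markers, 7 were called higher and 0 lower, where 0.0763% of all genes were called higher, and 27 were higher in each of the 3 batches, where 13.9% of all genes were. The exception was Cd8a. The median log2 change of the list was 3.16, beside 0.0027 for all genes tested, and 2.06, 2.72 and 3.54 within batches 1 to 3. Summed, the markers were 116.2, 135.1 and 86.6 CPM in DC only and 374.4, 863.0 and 696.3 CPM in SynTem. SynTem 1 was the lowest SynTem library for 27 of the 28 and SynTem 2 the highest for 26. Of 18 cytokines of activated T cells, 11 could be tested and 0 were called by edgeR or limma voom. DESeq2 called 1 higher, where it called 1.48% of all genes higher. An unadjusted edgeR p under 0.05 was found for 4, all higher, where 4.83% of all genes were. Ifng was 0.689, 0.971 and 0.049 CPM in DC only and 3.64, 1.46 and 1.13 CPM in SynTem (edgeR adjusted p = 0.826). Cd40lg, the ligand of CD40, had 0 counts in DC only and 11, 11 and 15 counts in SynTem, at least 14.4-fold higher (edgeR adjusted p = 0.0583). Il13 was 0 to 0.188 CPM against 0.892 to 2.25 CPM (edgeR adjusted p = 0.414), and Il2 had 1 count in the 6 libraries and could not be tested. Of 16 markers of cytotoxic lymphocytes and NK cells, edgeR called 0, DESeq2 and limma voom called 0, and 0 had an unadjusted edgeR p under 0.05. Their summed level was 610.8, 614.2 and 221.02 CPM in DC only and 1197, 487.4 and 488.8 CPM in SynTem, with overlap. Gzmb, the protease granzyme B, was 24.8, 19.5 and 0.539 CPM against 48.7, 135 and 119 CPM (edgeR adjusted p = 0.652). Il2rb, a receptor chain of T cells and NK cells, was 70.5, 68.9 and 9.41 CPM against 212, 188 and 168 CPM (edgeR adjusted p = 0.75), so that for both genes SynTem lay above DC only and DC only 3 stood far below its group. In these sorted bulk samples, a change in the number of cells of a type and a change in RNA per cell cannot be told apart. The part of T cell RNA in the results on other genes below was not tested.

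Of the 6 called genes outside the T cell list, Izumo1r and Cd27 are described above, and the 4 others are expressed by DCs cultured alone. Nfil3, a transcription factor that cytokines induce, was 26.5, 23.4 and 23.8 CPM in DC only and 51.6, 57.4 and 81.9 CPM in SynTem. It rose 2.59-fold (log2 1.37 ± 0.21 SE, edgeR adjusted p = 0.048), a call that was lost with the batch number as a block (edgeR adjusted p = 0.063, with a range over the alternatives of 8.08e-07 to 0.456). Zfp281, a zinc finger factor of pluripotent cells, was 24.7, 29.5 and 31.8 CPM against 49.5, 45.9 and 50.3 CPM, a 1.69-fold rise (log2 0.76 ± 0.11, edgeR adjusted p = 0.0344). The groups of both genes were well apart, and SynTem 3 was the highest library for each. Rnase6, a secreted ribonuclease of myeloid cells, was 169, 173 and 158 CPM against 107, 114 and 113 CPM (log2 -0.58 ± 0.09, edgeR adjusted p = 0.0436), 1.495-fold lower. Gm15922, annotated as a polymorphic pseudogene on chromosome 7, was 40.2, 42.1 and 32.8 CPM against 22.3, 20.8 and 20.8 CPM (log2 -0.85 ± 0.12, edgeR adjusted p = 0.0328), 1.80-fold lower.

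Of 19 genes known to respond to STAT5, 1 was called higher (Nfil3) and 0 lower, where 0.0763% of all genes were called higher. An unadjusted p under 0.05 was found for 8, all higher, where 4.83% of all genes were, and the median log2 change was 0.32 (0.197 without SynTem 3). Cish, the feedback inhibitor of STAT5 signalling, was 2.13, 1.88 and 1.47 CPM in DC only and 8.62, 35.5 and 72.5 CPM in SynTem. The fitted difference was 21.4-fold and just missed the threshold (log2 4.42 ± 0.68, edgeR adjusted p = 0.0546), with every SynTem library above every DC only library. The related suppressors Socs2 and Socs3 were 6.71 to 7.03 against 12.4 to 28.4 CPM and 24.5 to 56.1 against 67.6 to 190.4 CPM (edgeR adjusted p = 0.388 and 0.272). Osm, a cytokine of myeloid and T cells, was 2.40 to 3.88 against 4.75 to 13.6 CPM, and the survival gene Bcl2 45.1 to 57.7 against 68.1 to 77.9 CPM (edgeR adjusted p = 0.256 and 0.286). Other members were level: Csf2rb had a log2 change of 0.11, Pim1 of 0.13 and Myc of -0.20. Jak3, the kinase bound to the common gamma chain, was 37.5 to 50.5 CPM against 73.0 to 85.4 CPM (log2 0.89 ± 0.16, edgeR adjusted p = 0.0781), and passed with the batch number as a block (edgeR adjusted p = 0.043, with a range over the alternatives of 0.000254 to 0.695). Il4ra, the interleukin 4 receptor, was 61.6 to 93.8 CPM against 126 to 156 CPM (edgeR adjusted p = 0.463).

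Genes of the interferon gamma response were higher in SynTem, with none past the adjusted threshold in the main edgeR fit. Of the 26 tested members of the list of 28, edgeR and limma voom called 0. DESeq2 called 13, all higher, where it called 1.48% of all genes higher. An unadjusted edgeR p under 0.05 was found for 19, all higher, where 4.83% of all genes had one. With the Y-linked level as a covariate edgeR called 8 of the 26, and with the batch number as a block 1, where 44 and 21 genes were called in all. The groups did not overlap in 19, with SynTem higher, where 7.42% of all genes did the same. The median log2 change was 2.20, and 25 of 26 were above 0, beside 50.4% of all genes. The size of the difference varied between libraries. SynTem 3 was the highest SynTem library for 20 of the 26, DC only 3 the lowest DC only library for 25, and the median was 1.32, 0.46 and 3.65 within batches 1, 2 and 3. Over these 26 genes the median was 1.35 without SynTem 3 and 1.93 without DC only 3.

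The promoters of this list carried the letters of 2 interferon elements more often than those of other genes. The list was chosen as genes known for this response, so the shares below describe the list and not these libraries. The GAS element, through which interferon gamma acts, was searched as TTCNNNGAA, and the interferon-stimulated response element (ISRE) as GAAANNGAAA on either strand, in the 250 bases before the start of each gene in RefSeq's GRCm38.p6 annotation. Of the 16 list members with a promoter sequence, 8 held GAS letters (50%) and 11 held ISRE letters (68.8%), and 6 held both (37.5%). Among 27025 genes these shares were 8.13%, 3.46% and 0.459%. Of the 19 type I interferon response genes with a sequence, 3 held GAS letters (15.8%) and 8 held ISRE letters (42.1%). GAS and ISRE letters do not overlap in the 5 stretches of 130 bases below. These were picked by hand from GTPase genes with groups that did not overlap. Gbp5, with both kinds of letters, and Irgm1 and Gbp3, with ISRE letters only, were such genes too and are not shown. Capitals mark GAS or ISRE letters, and each stretch reads 5′ to 3′ on the gene's strand. They lie at chr11:58199426-58199555 (plus strand) for Igtp, chr11:58214847-58214976 (plus) for Irgm2, chr11:48992247-48992376 (minus) for Tgtp1, chr3:142530206-142530335 (plus) for Gbp7 and chr3:142620533-142620662 (plus) for Gbp2.
Igtp: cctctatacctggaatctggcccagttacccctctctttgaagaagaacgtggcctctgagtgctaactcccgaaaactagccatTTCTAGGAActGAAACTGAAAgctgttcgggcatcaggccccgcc
Irgm2: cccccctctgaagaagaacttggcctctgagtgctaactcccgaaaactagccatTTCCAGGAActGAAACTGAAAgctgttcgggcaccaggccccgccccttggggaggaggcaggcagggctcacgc
Tgtp1: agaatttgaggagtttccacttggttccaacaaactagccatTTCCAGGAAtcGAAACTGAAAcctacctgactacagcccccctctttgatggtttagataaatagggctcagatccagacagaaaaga
Gbp7: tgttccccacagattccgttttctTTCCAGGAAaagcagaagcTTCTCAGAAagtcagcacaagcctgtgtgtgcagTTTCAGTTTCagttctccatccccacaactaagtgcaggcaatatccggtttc
Gbp2: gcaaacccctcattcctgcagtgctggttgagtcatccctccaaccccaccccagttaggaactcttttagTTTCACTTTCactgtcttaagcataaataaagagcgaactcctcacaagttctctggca
In Igtp, Irgm2 and Tgtp1 the GAS letters begin 11 bases before the ISRE letters. Gbp7 holds 2 GAS matches and 1 ISRE match, and Gbp2 holds ISRE letters only. A match describes these letters and shows no binding.

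**Figure D3:**
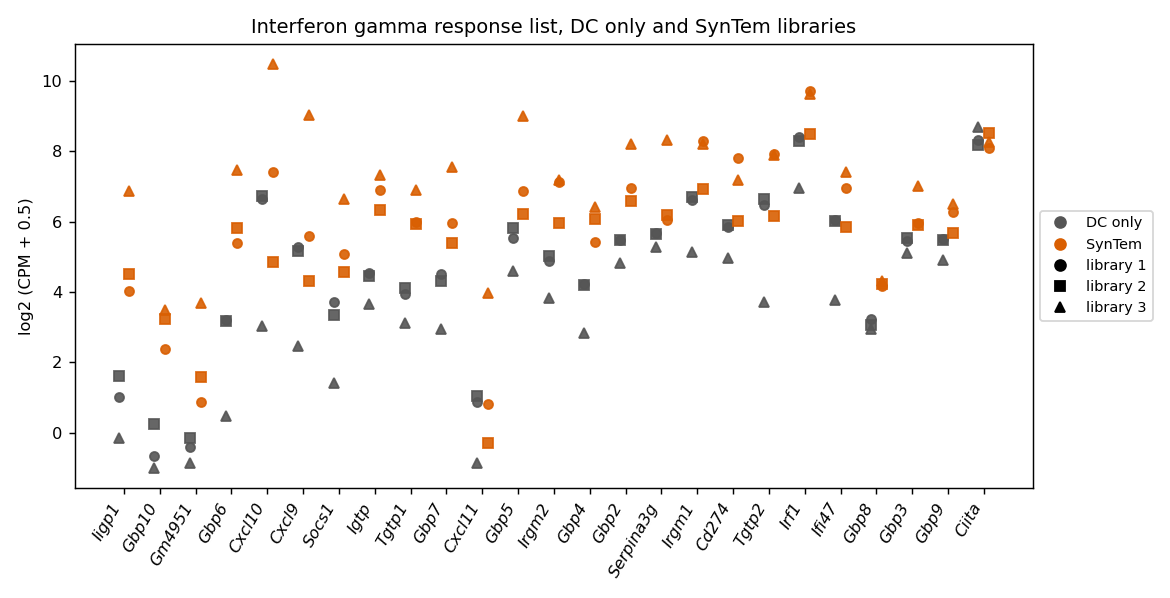
Level of 25 of the 26 tested interferon gamma response genes as log2 (CPM + 0.5) in the 3 DC only (grey) and 3 SynTem (orange) libraries, with marker shape for the library number, ordered by fitted change. SynTem libraries lie above DC only libraries for most genes, with SynTem 3 highest for 20 and DC only 3 lowest for nearly every one.

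The guanylate-binding proteins (GBPs), interferon-induced GTPases that coat and break open pathogen compartments, were higher in SynTem without passing the test. Gbp10 was 0.125, 0.685 and 0 CPM in DC only and 4.68, 8.80 and 10.7 CPM in SynTem (log2 change 4.89 ± 0.80, edgeR adjusted p = 0.0552). It passed with the batch number as a block (edgeR adjusted p = 0.043, with a range over the alternatives of 1.25e-09 to 0.313), and Gbp10 and Gbp6 share much of their sequence. Gbp6 was 8.70, 8.51 and 0.882 CPM against 41.8, 55.8 and 176 CPM, and Gbp2 was 44.3, 43.7 and 27.5 CPM against 122, 94.5 and 295 CPM (edgeR adjusted p = 0.23 and 0.105). For both genes SynTem 3 was far above the other SynTem libraries. Gbp7, whose promoter is shown above, was 22.5, 19.1 and 7.25 CPM against 61.3, 41.8 and 186 CPM, and Gbp5 was 45.9, 56.2 and 23.4 CPM against 116, 73.2 and 507 CPM (edgeR adjusted p = 0.152 and 0.272). Gbp3, Gbp4 and Gbp9 were 34.0 to 45.6, 6.56 to 18.0 and 29.3 to 44.9 CPM in DC only and 59.7 to 129, 41.9 to 84.8 and 50.5 to 89.2 CPM in SynTem (edgeR adjusted p = 0.297, 0.163 and 0.576). Gbp8 had the least spread of the family, 7.25 to 8.95 CPM in DC only against 17.5 to 19.5 CPM in SynTem (log2 change 1.19 ± 0.33, edgeR adjusted p = 0.257). Gbp11, a member outside the list that was named after its values were seen, had 0 counts in DC only and 14, 16 and 27 counts in SynTem, at least 21.9-fold higher (edgeR adjusted p = 0.0786).

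The immunity-related GTPases, which act with the GBPs at pathogen vacuoles, were higher in SynTem without passing the test. Igtp was 22.9, 21.4 and 12.2 CPM in DC only and 118, 80.5 and 161 CPM in SynTem (log2 change 2.67 ± 0.54, edgeR adjusted p = 0.12). Irgm2 was 29.0, 32.1 and 13.8 CPM against 139, 61.6 and 143 CPM, and Iigp1 was 1.502, 2.57 and 0.392 CPM against 15.8, 22.4 and 117 CPM (edgeR adjusted p = 0.132 and 0.12). Irgm1 was 98.1, 103 and 34.8 CPM against 314, 121 and 296 CPM (edgeR adjusted p = 0.487). None of these groups overlapped. Ifi47 was 65.3, 64.1 and 13.2 CPM against 124, 56.9 and 170 CPM, with SynTem 2 below DC only 1 and 2. Tgtp1 was 8.13 to 16.7 CPM against 60.04 to 119 CPM (edgeR adjusted p = 0.327), while its near-identical copy Tgtp2 was 12.6 to 99.4 CPM against 71.3 to 242 CPM, with overlap, so the split of reads between the copies is uncertain.

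The regulators and chemokines of the response were more variable. Irf1, a transcription factor that interferon gamma induces, was 339, 310 and 124 CPM in DC only and 843, 358 and 788 CPM in SynTem (log2 change 1.36 ± 0.47, edgeR adjusted p = 0.407). Socs1, the feedback inhibitor of interferon signalling, was 12.5, 9.60 and 2.16 CPM against 32.9, 23.1 and 98.8 CPM (edgeR adjusted p = 0.272). Cd274, which encodes the inhibitory ligand PD-L1, was 56.6, 58.9 and 30.5 CPM against 221, 64.5 and 145 CPM (edgeR adjusted p = 0.473). The groups did not overlap for these 3 genes, and SynTem 2 had the lowest SynTem level of each. The groups overlapped for Ciita, the master factor of MHC class II, the single member with a fitted change below 0 (log2 -0.10). The chemokines Cxcl9 and Cxcl10, which draw T cells through CXCR3, were 38.1, 35.5 and 4.996 CPM against 47.9, 19.4 and 517 CPM, and 100.02, 105 and 7.59 CPM against 168, 28.4 and 1422 CPM. SynTem 2 lay below DC only 1 and 2 for both, and SynTem 3 far above all (edgeR adjusted p = 0.626 and 0.608).

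Among genes of the type I interferon response none was called. Of 26 tested, edgeR called 0 in either direction, 0 had an unadjusted p under 0.05, and DESeq2 and limma voom called 0. The median log2 change was -0.48, 20 of 26 were below 0, and the medians within batches 1 to 3 were -0.42, -2.13 and 2.16. The median turned to 0.26 with the batch number as a block and to 1.21 with the Y-linked level as a covariate. With that covariate 24 of 26 were above 0 and 16 had an unadjusted edgeR p under 0.05, all higher, and 0 were called. Of all 14413 genes, 1821 had such a p in that fit, in either direction. Isg15, a ubiquitin-like interferon product, was 40.0, 36.8 and 2.40 CPM in DC only and 13.9, 3.74 and 18.4 CPM in SynTem (edgeR adjusted p = 0.862). Irf7, the factor that amplifies the response, was 297, 290 and 37.9 CPM against 189, 50.5 and 146 CPM. DC only 3 was the lowest library for both genes, and the libraries with Y-linked transcripts (DC only 3, SynTem 2 and SynTem 3) lay below those without or nearly without (DC only 1, DC only 2 and SynTem 1), apart from Isg15 in SynTem 3. The part of whatever sets these libraries apart was not tested.

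Costimulatory and maturation genes had a median near 0, with single genes apart. Of 27 tested, edgeR and limma voom called 0, and DESeq2 called 4 higher and 1 lower, where it called 1.48% and 0.284% of all genes. An unadjusted edgeR p under 0.05 was found for 7 in the higher direction and 2 in the lower, where 4.83% and 3.41% of all genes had one. The groups did not overlap, with SynTem higher, in 10, where 7.42% of all genes did the same, and the median log2 change was 0.14, or -0.21 without SynTem 1. Cd80 was 38.3, 38.5 and 35.8 CPM in DC only and 40.2, 32.9 and 28.9 CPM in SynTem, and Cd86 was 100.1, 94.9 and 107 CPM against 143, 100.5 and 89.3 CPM (edgeR adjusted p = 0.958 and 0.943). Cd40, the receptor for the T cell's CD40 ligand, was 133, 113 and 50.1 CPM against 71.6, 39.6 and 102 CPM (edgeR adjusted p = 0.863). Groups overlapped for these 3 genes. Ccr7, which guides mature DCs to T cell zones, and Fscn1, an actin bundler of mature DCs, were high in 1 library only: SynTem 1 had 464 and 312 CPM, where the 5 others had 118 to 160.3 and 54.5 to 79.0 CPM. Tnfrsf4, the costimulatory receptor OX40, known on T cells, was 1.37 to 2.79 CPM against 9.22 to 12.2 CPM (edgeR adjusted p = 0.12), and Slamf1, a receptor of T cells and activated DCs, was 0 to 0.0626 CPM against 0.743 to 2.91 CPM (edgeR adjusted p = 0.074).

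Among ligands of T cell costimulatory receptors, Icosl and Tnfsf9 were lower and Tnfsf4 higher without passing the test, beside Cd80 and Cd86 above. Cd70, another such ligand, had 48 counts over DC only and 21 over SynTem, and was not called. Icosl, the ligand of the T cell receptor ICOS, was 518, 516 and 362 CPM in DC only and 302, 277 and 240.4 CPM in SynTem (log2 change -0.77 ± 0.21, edgeR adjusted p = 0.256). Tnfsf9, the ligand of 4-1BB, was 138, 136 and 60.6 CPM against 72.3, 30.9 and 28.4 CPM, with overlap (edgeR adjusted p = 0.36). Tnfsf4, the ligand of OX40, was 1.25, 1.26 and 1.91 CPM against 2.38, 3.10 and 2.31 CPM (edgeR adjusted p = 0.656). The cytokine receptor chain Il6st (gp130) was 682, 721 and 619 CPM against 464, 476 and 428 CPM, with little spread in either group (log2 -0.56 ± 0.12, edgeR adjusted p = 0.12). Of 14 MHC class II genes, 2 were above 0, edgeR, DESeq2 and limma voom called 0, and the median log2 change was -0.11. Within batches 1 to 3 the medians were 0.075, -0.0059 and -0.559. At an unadjusted edgeR p under 0.05, 1 was lower (H2-DMa, log2 -0.39, edgeR adjusted p = 0.431), where 3.41% of all genes were.

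Of 17 tested inflammatory cytokines, edgeR and limma voom called 0 and DESeq2 called 3 higher, where it called 1.48% of all genes higher. At an unadjusted edgeR p under 0.05, 5 were higher and 1 lower, where 4.83% and 3.41% of all genes were, and the median log2 change was 0.57. Csf1, described above, and Lif were among those higher, and Il1b, Tnf and Il6 were not. Il1b was 295, 300 and 115 CPM in DC only and 439.7, 87.1 and 97.6 CPM in SynTem (log2 change -0.19 ± 0.64, edgeR adjusted p = 0.967). Tnf was 105, 93.4 and 30.4 CPM against 109, 17.7 and 84.2 CPM, and Il6 was 5.13, 4.85 and 2.01 CPM against 4.61, 2.79 and 9.31 CPM (edgeR adjusted p = 0.982 and 0.852). The spread within each group was as large as any difference between them, and the sign of all 3 turned when single libraries were left out. Il12b, a subunit of interleukin 12, was 4.19, 3.60 and 4.56 CPM against 32.3, 8.30 and 3.32 CPM (edgeR adjusted p = 0.606). Lif, a cytokine of the interleukin 6 family, was 0 to 0.343 CPM against 0.669 to 7.83 CPM, and Id1, a helix-loop-helix inhibitor, 0.588 to 1.06 CPM against 2.66 to 11.4 CPM (edgeR adjusted p = 0.198 and 0.074).

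Markers of DC subsets and of other cells were not called, apart from the T cell genes and Cd4 above. Of 14 type 1 DC markers, 12 were below 0 (median log2 -0.16), and 0 were called by edgeR, DESeq2 or limma voom. At an unadjusted edgeR p under 0.05, 2 were lower and 1 higher, where 3.41% and 4.83% of all genes were. Clec9a, the receptor for dead cells, was 132, 141 and 146 CPM in DC only and 83.7, 129 and 100.4 CPM in SynTem, and the chemokine receptor Xcr1 40.9, 43.5 and 45.9 CPM against 19.3, 39.4 and 27.2 CPM (edgeR adjusted p = 0.574 and 0.821). Irf8, the factor of that lineage, was 1606 to 1711 CPM against 1395 to 1581 CPM, and Irf4, the factor of type 2 DCs, 89.0 to 111 CPM against 100.7 to 121 CPM (edgeR adjusted p = 0.695 and 0.91). Of 14 plasmacytoid DC markers, 10 were below 0 and 4 above (median log2 -0.38), and edgeR and limma voom called 0. DESeq2 called 2 lower, where it called 0.284% of all genes lower, and 4 were lower at an unadjusted edgeR p under 0.05, where 3.41% of all genes were. The median was -0.11 without SynTem 1. Spib and Runx2, factors of these cells and members whose groups did not overlap, were 68.1 to 171 against 41.9 to 63.0 CPM and 160.3 to 275 against 125 to 156 CPM (edgeR adjusted p = 0.224 and 0.243). Tlr7, a receptor for viral RNA in the same list, was 32.7, 40.5 and 18.4 CPM against 148, 20.8 and 38.2 CPM, with overlap (edgeR adjusted p = 0.78). Of 14 neutrophil markers, 14 were above 0 with a median log2 change of 2.43, and 0 were called by edgeR, DESeq2 or limma voom, with 6 at an unadjusted edgeR p under 0.05, all higher, where 4.83% of all genes were higher. Without SynTem 3 the median was 1.37 and 0 of 14 had such a p. Their medians within batches 1 to 3 were 1.66, -0.05 and 2.84. S100a8, a calcium-binding protein of neutrophils, was 2.07, 1.88 and 3.92 CPM against 27.4, 3.17 and 49.1 CPM, and Mpo, myeloperoxidase, 14.5, 16.4 and 69.3 CPM against 15.1, 37.4 and 565 CPM (edgeR adjusted p = 0.401 and 0.591). Summed neutrophil markers were 52.6 to 125.7 CPM in DC only against 72.6 to 1020.1 CPM in SynTem. SynTem 3, which was highest for most interferon gamma response genes, was also the highest of the 6 for Mpo and S100a8, and the part of these cells in the other results was not tested. Cholesterol synthesis genes were below 0 in 20 of 20 (median log2 -0.32), with 0 called by edgeR, DESeq2 or limma voom. At an unadjusted edgeR p under 0.05, 2 were lower, where 3.41% of all genes were. Hmgcs1, which commits acetyl units to the pathway, was 145, 140 and 74.6 CPM against 83.4, 74.0 and 71.9 CPM, so that DC only 3 lay at the level of SynTem.

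**Figure D4:**
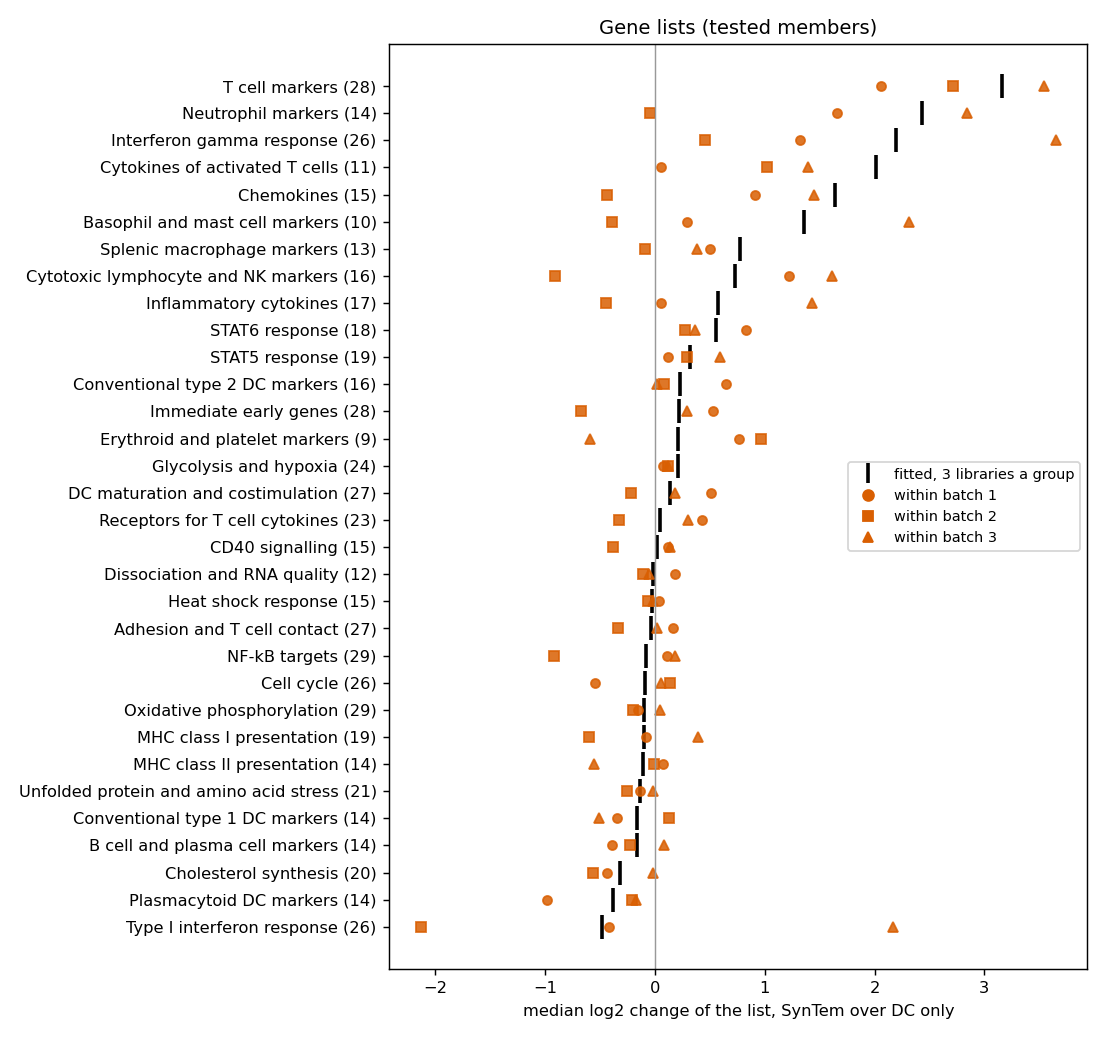
Median log2 change, SynTem over DC only, of the tested members of the gene lists (number of members in parentheses, without the sex-linked transcripts), as fitted (black bars) and within batches 1 to 3 (orange markers). T cell markers lie between 2.06 and 3.54 in the 3 batches, while type I interferon response genes run from -2.13 to 2.16.

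The difference between SynTem and the other cultures was tested directly, since all comparisons with DC only share its 3 libraries. SynTem against LPS gave 7 called genes (0.0486%). The 6 higher in SynTem (0.0416%) were Izumo1r, Cd4, Cd3d, Trac, Lat and Bcl11b, and the 1 lower (0.00694%) was Gm15922. SynTem against AlloTem gave 24 called genes (0.167%), 2 higher in SynTem (0.0139%) and 22 lower (0.153%). The 2 were Nrn1, named above, and F630028O10Rik, an uncharacterised gene, so that no member of the T cell list was called, although the list was higher in SynTem than in AlloTem in 26 of 28 members (median log2 1.51, with 15 at an unadjusted p under 0.05, where 3.91% of all genes were higher). Cd3e was 6.55, 2.93 and 3.92 CPM in AlloTem, between the DC only and SynTem levels, and Cd4 was 12.7, 12.8 and 9.35 CPM. Summed T cell markers were 377.8, 230.9 and 198.0 CPM in AlloTem, so that AlloTem 1 lay near SynTem 1.

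The interferon gamma response list was higher in SynTem than with LPS in 26 of 26 members (median log2 2.10), with 18 at an unadjusted p under 0.05, where 4.25% of all genes were, and 0 called by edgeR. Against AlloTem the median was 0.42, with 5 members higher and 1 lower at an unadjusted p under 0.05 (3.91% and 5.68% of all genes) and 0 called by edgeR. For Igtp the log2 change against DC only was 2.67 with SynTem, 1.80 with AlloTem and -0.37 with LPS. Nfil3 was lower in SynTem than in AlloTem, where it was 214, 224 and 162 CPM (log2 -1.65, edgeR adjusted p = 0.0126). Cish was 259.8, 309 and 205 CPM in AlloTem, above every SynTem library, but the difference did not pass (log2 -2.73, edgeR adjusted p = 0.115). Irf4 was lower in SynTem than in AlloTem (log2 -1.83, edgeR adjusted p = 0.00276), and so was the chemokine Ccl17, at 0.52 to 2.49 CPM against 66.0 to 189.98 CPM (edgeR adjusted p = 0.0126). Rnase6 was 100.5 to 125 CPM with LPS and 83.3 to 86.2 CPM with AlloTem, so that all 9 libraries of cultures with an added stimulus or T cells lay below the 3 of DC only. Gm15922 was lower in SynTem than with LPS (log2 -0.94, edgeR adjusted p = 0.0332) and at the AlloTem level (log2 -0.02, edgeR adjusted p = 0.974).

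**Figure D5:**
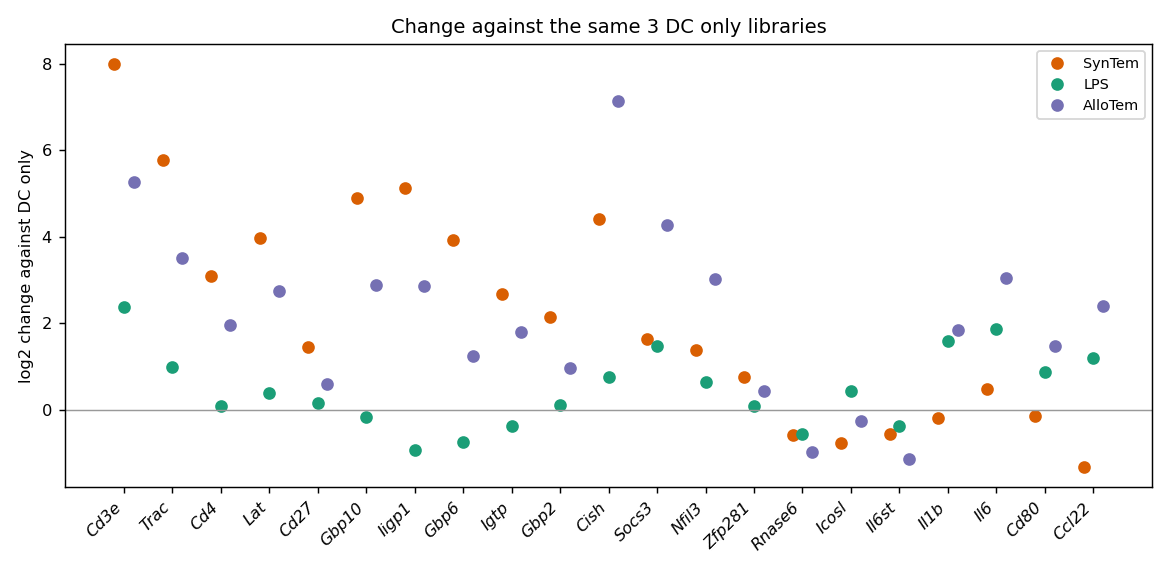
Fitted log2 change against the same 3 DC only libraries for SynTem (orange), LPS (green) and AlloTem (purple) in 21 named genes. T cell genes and GBPs are highest with SynTem, Cish, Socs3 and Nfil3 with AlloTem, and Il1b, Il6, Cd80 and Ccl22 are higher with LPS and AlloTem than with SynTem, differences that were tested only where a value is given in the text.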

How the data were processed

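Per the labels' protocols, DNase-treated RNA went into TruSeq libraries, read from a single end on a NextSeq. The authors deposited counts per Ensembl gene, whole numbers with no normalization, and a table with a batch number for each library. Per the submitters' processing notes, the build was mm10. Aligner, counting tool, strand setting and annotation release: not given in the sources used here. Without a strand setting, reads of overlapping genes cannot be told apart. Exons of the called genes overlap those of other genes over 5.54% of their length or less. Identifiers were looked up in GENCODE M21 (GRCm38), which gave a symbol and a position for 52028 of 57009, and the unnamed 4981 held 0.763% of counts.

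Genes were filtered with filterByExpr (minimum count 10, minimum total 15), scaled by TMM and tested in edgeR 4.0.16 under R 4.3.3 (robust quasi-likelihood), in a model of all 12 libraries with a mean for each group. A gene was called at a Benjamini-Hochberg adjusted p under 0.05 over all 14413 genes. Standard errors are the log2 change divided by the square root of F. A value within a batch is a log2 ratio after adding 0.5 CPM. Intervals and floors cover counting error only, and reads carry no molecular identifiers. Alternatives used DESeq2 1.42.0 and limma 3.58.1.

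The 6 libraries, the 34 gene lists (601 genes, 3 without a match and 1 by synonym) and the tests were chosen with earlier results of these data known. Genes named are the 12 called ones with a regular symbol, those of next smallest p with a mean of at least 5 CPM up to 24, a fixed set of cytokines, markers and transcription factors, and per list the member of smallest p and, for cell types, members of highest level, not all of which are printed. Those outside this rule, 67 in all, were chosen after their values were seen, among them Gm15922 and most members of the interferon gamma and T cell lists. Promoters came from RefSeq (GRCm38.p6).

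The batch numbers, which the deposited table gives, pair the libraries in a second model that has them as a block. Deviations from the group mean correlated by 0.25, -0.25 and 0.07 between DC only and SynTem libraries 1, 2 and 3. The median was 0.25 over 18 pairs of equal number in different groups and -0.20 over 36 other pairs. In batch 2, Y-linked transcripts were 0 CPM in DC only 2, LPS 2 and AlloTem 2 and 175.1 CPM in SynTem 2. Whether batch 2 holds matched libraries was not tested, and results with the block rest on that pairing. The scripts were tested on simulated counts of SynTem against DC only. There edgeR found 44 of the 100 genes simulated with a 2-fold difference and 65 of the 100 with a 4-fold difference. Among its 118 calls, 9 were genes simulated without a difference, and among the 154 calls of DESeq2 there were 33. Genes that edgeR did not call may therefore still differ, and calls made by DESeq2 alone are less certain. Values of 2 genes are not reported here, though they stay in the counts of their lists.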

Additional observations from a re-analysis of the deposited data

How the results depend on the processing

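The number of calls depended on the model and on single libraries, and the cause was not tested. Beside the 13 genes called by edgeR (11 higher, 2 lower), DESeq2 called 254 (213 and 41), limma voom 2 (2 and 0) and edgeR without a filter on low counts 33 (30 higher). The 6 libraries alone gave 1 (1 and 0), and leaving out SynTem 2 and DC only 2 together gave 1 (1 and 0). With the Y-linked level as a covariate 44 were called (42 higher). RLE and upper quartile scaling called 1 lower gene each. With the batch number as a block, which pairs the libraries, 21 were called (19 higher), and the block on the 6 libraries alone called 0 (0 higher, 0 lower), with 953 at an unadjusted p under 0.05. Leaving out 1 library at a time gave 0 to 56 calls, 0 to 53 higher and 0 to 6 lower, with 56 without SynTem 1. Thinning to the smallest total, dispersions without robust estimation and a filter at 5 CPM gave 17, 14 and 12. The 13 genes kept their direction in each of these, except that 2 of them were not tested at 5 CPM.

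Medians of lists are over the members tested with all 12 libraries. The median log2 change of T cell markers was 3.97 with the Y-linked covariate, that of cytotoxic and NK markers 2.26, that of macrophage markers 1.34 and that of glycolysis genes 0.139. With the block the glycolysis median was 0.171 and that of sex-linked transcripts 4.04. Without SynTem 2 and DC only 2 together the macrophage median was 1.11. Leaving out 1 library at a time gave medians from 1.13 to 2.06 for cytokines of activated T cells, 0.254 to 1.36 for macrophage markers, -0.0287 to 1.63 for erythroid markers and 0.159 to 0.656 for genes that respond to STAT6. For glycolysis genes it gave 0.128 to 0.215 and for sex-linked transcripts -0.0267 to 10.9.

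No called gene changed sign. Among genes that were not called, the log2 change turned with the Y-linked covariate for Il1b (0.38), Tnf (0.48), Cd40 (0.047), Cd80 (0.096), Isg15 (1.21), H2-Ab1 (0.0095), Xist (1.22), Itgax (0.015) and Irf7 (0.87). It turned without SynTem 2 and DC only 2 together for Il1b (0.39), Tnf (0.51), Xist (0.36) and Mitf (0.25), with the block for Xist (0.35) and Irf7 (0.026), with the block on 6 libraries for Xist (0.0398) and with limma voom for Xist (0.026). Leaving out 1 library at a time spanned 0 for Il1b (-1.356 to 0.18), Il6 (-0.11 to 0.81), Tnf (-0.58 to 0.34), Cd86 (-0.083 to 0.27), Ccr7 (-0.14 to 1.03), H2-Ab1 (-0.27 to 0.0071) and Cd8a (-0.28 to 0.15). It did so for Xist (-0.72 to 0.098), Itgax (-0.39 to 0.027), Itgam (-0.17 to 0.49), Mpo (-0.35 to 3.74), Ciita (-0.22 to 0.061), Mitf (-0.84 to 0.165), Tlr7 (-0.047 to 1.61) and Fscn1 (-0.21 to 1.35) too. Depth ran from 13903574 to 19461531 counts per library, and in genes with few counts a change of the size seen in Zfp281 may not be detectable at this depth.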

Other observations

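Genes of metabolism and stress moved little and stayed below the threshold. Of 24 genes of glycolysis and the hypoxia response, 18 were above 0 (median log2 0.21), and edgeR, DESeq2 and limma voom called 0. At an unadjusted edgeR p under 0.05, 4 were higher and 0 lower, where 4.83% and 3.41% of all genes were. Their summed level was 4908 to 4990.3 CPM in DC only against 5171 to 5675 CPM in SynTem, so that the groups did not overlap. Egln3, an oxygen sensor that hypoxia induces, was 1.94, 1.94 and 5.19 CPM in DC only and 4.39, 11.3 and 10.4 CPM in SynTem (edgeR adjusted p = 0.424). Of 29 genes of oxidative phosphorylation, 26 were below 0 (median log2 -0.10), edgeR, DESeq2 and limma voom called 0, and 0 had an unadjusted edgeR p under 0.05. Of 21 genes of the unfolded protein response and of amino acid stress, 16 were below 0 (median log2 -0.14), and edgeR and limma voom called 0. DESeq2 called 1, where it called 1.76% of all genes in either direction. At an unadjusted edgeR p under 0.05, 1 was lower, where 3.41% of all genes were. That gene was Herpud1, which helps to degrade misfolded proteins, at 884, 882 and 596 CPM against 557, 485 and 432 CPM (log2 -0.68 ± 0.18, edgeR adjusted p = 0.248). Fdps, an enzyme of cholesterol synthesis, was 109, 113 and 58.7 CPM against 59.2, 52.1 and 52.9 CPM (edgeR adjusted p = 0.491), where DC only 3 again lay near SynTem. Malat1, a nuclear RNA in the list of RNA quality, was 576, 517 and 601 CPM against 1147, 818 and 855 CPM (log2 0.73 ± 0.23, edgeR adjusted p = 0.349), with no overlap.

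Summed macrophage markers were 113.6 to 164.6 CPM in DC only and 266.7, 99.7 and 148.5 CPM in SynTem 1 to 3, and single markers were highest in SynTem 1. Adgre1, which encodes F4/80, was 22.5, 20.6 and 30.7 CPM in DC only and 117, 22.8 and 35.9 CPM in SynTem, and Hmox1, which degrades heme, 10.3, 11.5 and 11.2 CPM against 48.2, 8.11 and 14.7 CPM (edgeR adjusted p = 0.69 and 0.76). Cd163, a scavenger receptor of the same list, went the other way, at 27.1, 22.7 and 11.95 CPM against 16.0, 9.44 and 10.4 CPM (edgeR adjusted p = 0.491). Of the 13 members tested, edgeR called 0, and DESeq2 and limma voom called 0. At an unadjusted edgeR p under 0.05, 1 was higher and 1 lower, where 4.83% and 3.41% of all genes were. SynTem 1 was also the library with high Ccr7 and Fscn1, and the part of macrophage RNA in those levels was not tested. Of the melanocyte genes, Mlana, Tyr, Dct, Tyrp1, Sox10 and Slc45a2 had 0 counts in the 6 libraries. Pmel had 18 counts over DC only and 12 over SynTem and could not be tested, and Mitf, a factor that other cells express too, was 3.09 to 5.31 CPM against 2.01 to 6.76 CPM. Gpnmb, a glycoprotein also made by macrophages and DCs, was 1.69, 1.54 and 1.18 CPM against 8.92, 2.85 and 9.31 CPM, with no overlap (edgeR adjusted p = 0.272, with a range over the alternatives of 0.0218 to 0.731), and DESeq2 called it.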
